A study of Mus musculus with 6 samples.

Results

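The 9 genes that encode the core cyclin-dependent kinases and the enzymes that set their inhibitory phosphorylation were followed through E2F1 chromatin immunoprecipitation sequencing (ChIP-seq) in mouse NIH/3T3 fibroblasts. They are the kinases Cdk1, Cdk2, Cdk4 and Cdk6, the activating phosphatases Cdc25a, Cdc25b and Cdc25c, and the inhibitory kinases Wee1 and Pkmyt1. A peak was assigned to a gene when it overlapped the gene's span on GRCm38 or the 1000 bp on either side. By this rule the 9 genes, of 21887 protein-coding genes on the assembled chromosomes, held 16 peaks: 7 of the 7836 peaks of E2F1 replicate 1, 9 of the 8027 of E2F1 replicate 2, and 0 of the 70 and 358 peaks of the empty-vector (EV) replicates 1 and 2.

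NIH/3T3 is an established embryonic fibroblast line. The cells of the E2F1 group carried a stably integrated construct from which doxycycline induces the transcription factor E2F1, and the EV group carried the same kind of construct without E2F1. All groups were starved in 0.25% serum for 48 hours and then given doxycycline for 12 hours, so the EV group shares both starvation and drug. The dose is uncertain: the labels' protocol gives 500 ng/ml, while the peak names in all 4 deposited lists carry the number 200 before the word dox, with no unit. Each group had 2 libraries with a peak list of their own, and 2 input libraries of EV cells were not analysed here. The labels do not say whether the lines were clones or pools or whether replicates were separate cultures, so the spread between replicates may be technical. Peak lists hold no expression values, and the line was not checked against fibroblast markers.

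Cyclin-dependent kinases drive the cell cycle when bound to a cyclin: Cdk4 and Cdk6 with D-type cyclins inactivate the retinoblastoma protein in G1, Cdk2 acts at the entry into and during S phase, and Cdk1 triggers mitosis. Retinoblastoma protein holds E2F factors inactive in resting cells, so G1 kinase activity releases E2F. Wee1 in the nucleus and Pkmyt1 at membranes phosphorylate Cdk1 on inhibitory sites, and the Cdc25 phosphatases remove those phosphates, Cdc25a from G1 onwards and Cdc25b and Cdc25c mainly around the entry into mitosis.

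Of the 9 genes, 7 had a peak in both E2F1 lists whose intervals overlapped, against 34.4% of all protein-coding genes. In the single lists 7 genes in replicate 1 and 8 in replicate 2 had a peak, where 36.9% and 38.2% of all protein-coding genes did. In EV replicates 1 and 2 none of the 9 had a peak, and 0.0366% and 0.407% of protein-coding genes did, so an EV peak was rare among protein-coding genes as a whole. The mean number of genes with a peak was 7.5 ± 0.707 in E2F1 and 0 ± 0 in EV (SD, n = 2 each). The groups did not overlap, and p was 0.3333 in the exact two-sided permutation test over the 4 libraries, which is as low as this design of 2 and 2 can go, so it cannot pass 0.05. All 4 kinases and both inhibitory kinases had shared peaks. Of the phosphatases, Cdc25a had a shared peak, Cdc25b had a peak in replicate 2 alone, and Cdc25c had none. The lists hold peaks with a −log10 p-value above 10, and a gene without a peak may carry weaker signal.

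**Figure D1:**
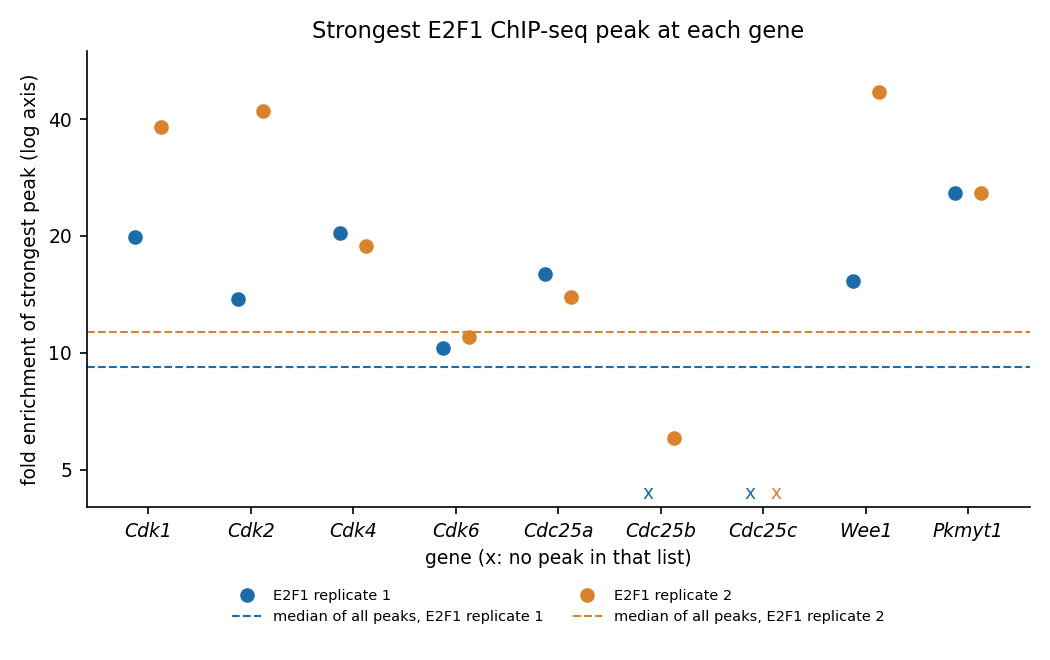
Fold enrichment (log axis) of the strongest peak at each of the 9 genes in E2F1 replicate 1 (blue) and replicate 2 (orange); dashed lines are the medians of all peaks of each list and x marks a gene with no peak in that list. Peaks of Cdk1, Cdk2, Cdk4, Cdc25a, Wee1 and Pkmyt1 lie above both medians, Cdk6 lies near them, and Cdc25b has its only point at 6.02.

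The promoter sequences cover at most part of each peak. In E2F1 replicate 1 the summits of Cdk1, Cdc25a and Cdk4 lay 139, 218 and 197 bp downstream of the start site, beyond these sequences. The Cdk4 interval of that list began 127 bp upstream. RefSeq promoter sequences of GRCm38.p6, running from 250 bases before to 50 bases after the start site, were matched for 6 of the 9 genes: Cdk1, Cdk2, Cdk4, Cdk6, Cdc25a and Cdc25b. In both E2F1 lists a peak overlapped the sequence of 5 of these 6, where 29.4% of 21263 promoter sequences of protein-coding genes were overlapped in both, and Cdc25b was the exception. The 250 bases upstream of the start site are shown for 3 genes whose sequence matched an E2F motif (Cdk1, Cdk2 and Cdc25a), for Cdk4, which had a strong peak and no match, and for Cdc25b, which had the lowest fold of the 8 genes with a peak. They are the strands read towards the gene, at chr10:69352913-69353162 (minus strand), chr10:128705052-128705301 (minus strand), chr9:109875329-109875578 (plus), chr10:127063285-127063534 (plus) and chr2:131186698-131186947 (plus). Capitals mark matches to an E2F motif (TTTCCCGC, TTTGGCGC, TTTCGCGC or TTTGCCGC), to the cell cycle homology region CHR (TTTGAA or TTCGAA) and to CCAAT, on either strand, so that ATTGG is CCAAT read on the other strand. In Cdk4, which had no match to these, capitals mark CACGTG.
Cdk1: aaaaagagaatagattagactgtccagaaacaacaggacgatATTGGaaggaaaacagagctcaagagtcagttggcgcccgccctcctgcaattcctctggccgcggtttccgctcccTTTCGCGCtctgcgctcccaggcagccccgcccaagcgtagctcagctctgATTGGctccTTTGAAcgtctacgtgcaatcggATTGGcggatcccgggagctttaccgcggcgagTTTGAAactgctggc
Cdk2: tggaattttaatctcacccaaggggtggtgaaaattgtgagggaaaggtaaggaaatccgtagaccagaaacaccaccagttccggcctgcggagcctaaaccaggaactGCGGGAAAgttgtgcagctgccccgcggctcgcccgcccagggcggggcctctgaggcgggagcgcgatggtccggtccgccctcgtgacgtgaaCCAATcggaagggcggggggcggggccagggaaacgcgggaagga
Cdc25a: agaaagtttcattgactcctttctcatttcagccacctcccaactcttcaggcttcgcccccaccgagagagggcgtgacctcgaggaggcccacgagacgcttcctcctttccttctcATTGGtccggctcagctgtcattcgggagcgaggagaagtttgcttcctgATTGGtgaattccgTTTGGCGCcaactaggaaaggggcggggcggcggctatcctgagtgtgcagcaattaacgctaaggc
Cdk4: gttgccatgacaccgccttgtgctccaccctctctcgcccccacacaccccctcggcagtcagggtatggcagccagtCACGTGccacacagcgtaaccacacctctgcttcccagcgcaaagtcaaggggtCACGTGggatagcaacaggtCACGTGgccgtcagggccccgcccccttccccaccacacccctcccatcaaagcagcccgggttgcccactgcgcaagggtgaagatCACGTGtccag
Cdc25b: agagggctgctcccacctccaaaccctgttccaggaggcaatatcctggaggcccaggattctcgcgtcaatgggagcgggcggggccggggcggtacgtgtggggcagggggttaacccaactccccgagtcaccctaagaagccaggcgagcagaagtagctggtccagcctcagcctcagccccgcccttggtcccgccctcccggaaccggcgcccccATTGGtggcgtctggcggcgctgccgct

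The E2F words were found in 3 of the 6 promoter sequences and in 2.85% of all 21263 sequences of the same length. Among all sequences overlapped by a peak in both E2F1 lists the share was 5.96%, and among the rest it was 1.56%, so most overlapped promoters lack these exact letters. With the 7-base cores of these words the same 3 of the 6 matched, but so did 12.1% of all sequences. The core share was 23.5% among sequences overlapped in both E2F1 lists and 7.36% among the rest. Cdk1 held TTTCGCGC from 131 to 124 bases upstream of its start site, Cdk2 held TTTCCCGC on the other strand from 140 to 133 bases upstream, and Cdc25a held TTTGGCGC from 67 to 60 bases upstream. In E2F1 replicate 2 the summit lay 37.5 bp from the middle of the match in Cdk1, 73.5 bp in Cdk2 and 1.5 bp in Cdc25a. In E2F1 replicate 1 the distances were 266.5, 101.5 and 281.5 bp, longer at each of the 3 genes. The distances are to the marked words alone. A 7-base core of an E2F word also occurs unmarked in Cdk1 (ttggcgc) and in Cdk2 (gcgggaa, nearer the start site than the marked word). Distances to these cores were not measured. A match to the letters describes the sequence and does not show a bound site.

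CHR elements, which the MuvB complexes bind at genes of late cell cycle phases, were found in 2 of the 6 sequences. Cdk1 held TTTGAA at 71 to 66 and at 15 to 10 bases upstream, and Cdc25b held TTCGAA from 7 to 12 bases after the start site, beyond the printed stretch and counting the start site as 0. CHR words occurred in 17.6% of all promoter sequences, in 11.4% of those overlapped in both E2F1 lists and in 20.2% of the rest. CCAAT boxes, the binding element of NF-Y, were found in 4 of the 6 sequences and in 38.2% of all. Cdk1 held 3, Cdc25a 2, and Cdk2 and Cdc25b 1 each.

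Cdk1, on chromosome 10 from 69335146 to 69352912, encodes the kinase that starts mitosis. Its peak had a fold enrichment of 19.9 in E2F1 replicate 1, rank 923, and of 38.2 in replicate 2, rank 460. Both values were high for their list, above 88.2% and 94.3% of its peaks, with a mean fold of 29.0 ± 12.9 (SD, n = 2). The fold is the authors' ratio of the read pileup at the summit to the local background, and ranks count from the highest fold in a list. The intervals ran from 69351955 to 69353383 and from 69352088 to 69353260, with summits 139 bp downstream and 90 bp upstream of the start site. They were thus 229 bp apart on opposite sides of it.

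Cdk2, the partner of E- and A-type cyclins in S phase, lies on chromosome 10 from 128697938 to 128705051, inside the annotated span of Pmel, a pigment cell gene. Its peak had folds of 13.8 in replicate 1, rank 2020, and 42.1 in replicate 2, rank 348. The replicate 2 value was 3.05 times the replicate 1 value. Of 7006 sites with overlapping peaks in the E2F1 lists, 97.4% had a lower ratio of replicate 2 to replicate 1, so the 2 libraries disagreed more at Cdk2 than at most sites. The position was steadier than the height, with intervals of 128704256 to 128705665 and 128704403 to 128705485 and summits 35 and 63 bp upstream of the start site. Both intervals also overlapped the span of Pmel, and the peak cannot be assigned to Cdk2 alone.

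Cdk4, a G1 kinase of D-type cyclins, is a short gene on chromosome 10 from 127063535 to 127067288, next to Tspan31. Its peak had folds of 20.4 in replicate 1, rank 850, and 18.9 in replicate 2, rank 2007, a mean of 19.7 ± 1.07 (SD, n = 2). The folds were close, and the percentile fell from 89.2 in replicate 1 to 75.0 in replicate 2 while the median fold over all peaks rose from 9.19 to 11.3. The intervals ran from 127063408 to 127064765 and from 127063303 to 127064443, with summits 197 and 45 bp downstream of the start site. No peak lay at its other boundary.

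Cdk6, the second G1 kinase, spans 190005 bp on chromosome 5 from 3341004 to 3531008. It had the lowest fold of the 7 genes with a shared peak in both lists, 10.3 in replicate 1, rank 3305, and 11.0 in replicate 2, rank 4141. Replicate 1 listed 1 broad interval of 3105 bp, from 3341101 to 3344205, wider than 98.9% of the peaks in its list. Replicate 2 listed 2 intervals in the same stretch, 3342179 to 3343386 with the fold of 11.0 and 3343665 to 3343969 with a fold of 6.09. The stronger summits lay 1495 and 1609 bp upstream of the RefSeq start site, within the span of the long non-coding RNA gene Gm36470 as well as of Cdk6. That start site, at 3343893, lies inside the annotated span of Cdk6, so these summits are downstream of the lower end of the span. The weaker summit of replicate 2 lay 37 bp upstream of the start site. Cdk6 was therefore the only one of the 6 genes with a matched start site whose strongest summit lay more than 1000 bp from it.

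Cdc25a, the phosphatase that acts from G1 onwards, lies on chromosome 9 from 109875518 to 109893895. Its peak had folds of 15.9 in replicate 1, rank 1526, and 13.9 in replicate 2, rank 3195, a mean of 14.9 ± 1.45 (SD, n = 2). It was above 80.5% and 60.2% of the peaks of its list. The intervals ran from 109875083 to 109876769 and from 109875115 to 109876421. The summits lay 218 bp downstream and 65 bp upstream of the start site, 283 bp apart, the widest gap among the 7 genes.

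Cdc25b, a phosphatase active around mitotic entry, lies on chromosome 2 from 131186436 to 131198511. Replicate 2 listed a peak from 131186744 to 131187121, with its summit 22 bp upstream of the start site. Its fold of 6.02 ranked 6942 of 8027, above 13.5% of the list, and its width of 378 bp exceeded 7.97% of the list. The peak was thus weak and narrow. Replicate 1 listed none there, and its nearest peak, 5464 bp outside the gene from 131179030 to 131180972, overlapped Cenpb, which encodes a centromere protein, with a fold of 39.1.

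Cdc25c, on chromosome 18 from 34732993 to 34751564, had no peak in any list. The nearest E2F1 peaks lay 7778 bp away in replicate 1 and 7286 bp away in replicate 2 and overlapped Fam53c. Their folds were 7.83 and 6.20, both below the median of their list.

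Wee1, the nuclear inhibitory kinase, lies on chromosome 7 from 110122059 to 110143299. Its peak had folds of 15.3 in replicate 1, rank 1669, and 46.9 in replicate 2, rank 245, which was the highest fold of any of the 9 genes in either list. The ratio of 3.06 was higher than at 97.5% of the shared sites. The intervals ran from 110121855 to 110123437 and from 110121456 to 110123424, and the summits lay 98 and 4 bp from the lower boundary of the gene.

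Pkmyt1, the membrane-bound inhibitory kinase, lies on chromosome 17 from 23726336 to 23736735. Its peak had folds of 25.8 in replicate 1, rank 439, and 25.9 in replicate 2, rank 1152, the closest pair of folds among the 7 genes, with a mean of 25.8 ± 0.0490 (SD, n = 2). The intervals ran from 23725778 to 23727493 and from 23726062 to 23726972, and the summits, 223 and 214 bp from the lower boundary of Pkmyt1, were 9 bp apart. Both intervals also overlapped the end of 1520401A03Rik, a protein-coding gene that overlaps this boundary, and the peak cannot be assigned to Pkmyt1 alone.

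**Figure D2:**
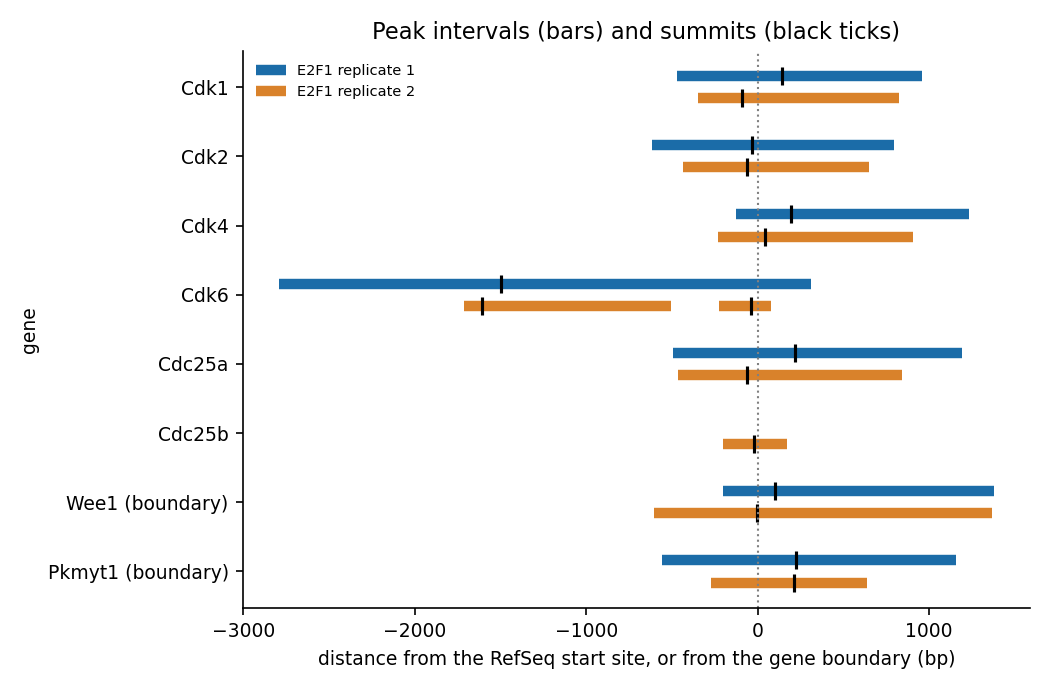
Intervals of all peaks at the 8 genes with any peak, as distance in bp from the RefSeq start site (positive into the gene) or, for Wee1 and Pkmyt1, from the lower gene boundary; blue bars are E2F1 replicate 1, orange bars replicate 2, and black ticks are summits. Summits lie within 300 bp of the reference except the stronger ones at Cdk6, at 1495 and 1609 bp upstream of a start site that lies inside the annotated span.

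Most peaks at these genes were wide. The Cdc25b peak of 378 bp and the weaker Cdk6 interval of 305 bp, both in E2F1 replicate 2, were narrow. At the 7 genes with a shared peak the strongest peak was 1358 to 3105 bp wide in replicate 1 and 911 to 1969 bp in replicate 2, against medians of 938 and 814 bp over all peaks. All 7 exceeded the list median in each replicate. Against peaks above the median fold, whose median widths were 1196 and 1029 bp, 7 of 7 in replicate 1 and 6 of 7 in replicate 2 were wider, Pkmyt1 in replicate 2 being the exception at 911 bp. Every peak assigned to the 9 genes also overlapped the gene span itself, and the nearest one left out by the 1000 bp limit lay 3046 bp past Pkmyt1 in replicate 1, with a fold of 9.06.

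To order the genes, each fold was divided by the median fold of the 7006 shared sites in its list, 9.85 in replicate 1 and 12.7 in replicate 2, and taken to the log2 scale. Cdk1 came first with a relative fold of 1.30 ± 0.41, then Wee1 with 1.26 ± 0.88, Pkmyt1 with 1.21 ± 0.26, Cdk2 with 1.11 ± 0.88 and Cdk4 with 0.81 ± 0.34 (SD, n = 2 each). Cdc25a followed with 0.41 ± 0.40 and Cdk6 with -0.07 ± 0.19. The replicate ranges of every pair of neighbours in this order overlapped except those of Cdc25a and Cdk6, so neighbours among the first 6 were not separated beyond their spread. The ranges of Cdk1 and of Pkmyt1 lay above that of Cdc25a. Across all shared sites the log2 ratio of replicate 2 to replicate 1 had an SD of 0.64 around a median of 0.34.

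The pileup at the summit and the local background behind each fold were solved from the deposited fold and p-value, and they show where the replicates differed. At Cdk1 the pileup was 68 reads in replicate 1 and 160 in replicate 2, with backgrounds of 2.47 and 3.22 reads. At Cdk2 the pileups were 54 and 142 reads and the backgrounds 2.99 and 2.40. At these 2 genes the replicates differed mostly in pileup, by 2.35 and 2.63 times.

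At Wee1 the pileups of 109 and 133 reads differed by 1.22 times, and the backgrounds of 6.17 and 1.86 reads by 3.32 times. The gap between the Wee1 folds thus lay mostly in the background, which in replicate 2 was at the lowest value of the whole list. Pkmyt1 had the highest pileup of the 9 genes in replicate 1, 174 reads, and 145 in replicate 2, over backgrounds of 5.79 and 4.65 reads. By pileup Pkmyt1 ranked above 96.2% of peaks on average over both lists, where by fold Pkmyt1 was above 90.0% and Cdk1 above 91.3%, so which of these genes comes first depends on the measure. Cdk4 had pileups of 93 and 113 reads over backgrounds of 3.61 and 5.03. Cdc25a had pileups of 58 and 40 reads and Cdk6 of 57 and 39, both near the list medians of 47 and 45 reads, and the backgrounds at Cdc25a were 2.70 and 1.95 reads. At Cdc25b the single peak rested on 25 reads over 3.32.

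**Figure D3:**
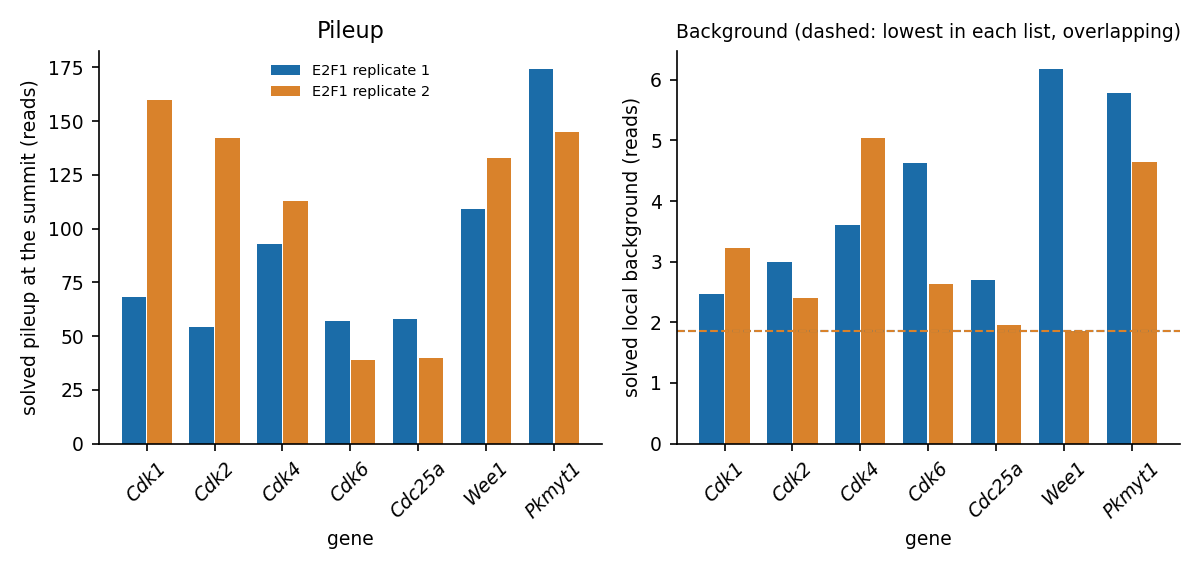
Solved pileup (left, reads) and local background (right, reads) at the summit of the strongest peak of the 7 genes with a shared peak; blue bars are E2F1 replicate 1, orange bars replicate 2, each bar being 1 library, and the dashed lines, which nearly coincide, are the lowest backgrounds of the lists. Cdk1 and Cdk2 differ between replicates in pileup, and Wee1 in background, at 6.17 against 1.86 reads.

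Ranked within a list, the strongest peaks of the 7 genes had a median fold percentile of 80.5 in replicate 1 and 85.7 in replicate 2. Averaged over both lists per gene, the median was 85.0, where the 7521 protein-coding genes with a shared peak had a median of 56.1. Of the 9 genes, 6 had a strongest peak above the median fold of its list in both replicates (Cdk1, Cdk2, Cdk4, Cdc25a, Wee1 and Pkmyt1), against 16.0% of protein-coding genes. Cdk6 was above the median in replicate 1, at 57.8, and below it in replicate 2, at 48.4.

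Other genes of the pathway were taken from a list of 50, of which 35 had a shared peak in both E2F1 lists, 6 had a peak in 1 list only, 1 (Cdk5) had peaks in both that did not overlap, and 8 had none. Among all protein-coding genes 34.4% had a shared peak, the share to set beside this count and those of the groups below. No gene of the list had a peak in an EV list. Of the 35, 20 remained when peaks below the median score of their list were left out, and of the 7 core genes 6 did. The share of all protein-coding genes that remain under this cut was not counted, so these numbers have no baseline. The 50 genes had a median fold percentile of 61.2 over the 36 with a value in both lists. These are descriptions, and no difference between the lists was tested.

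Among the other CDK-family kinases, many of which act in transcription or outside the cell cycle, 9 of 15 had a shared peak, with a median fold percentile of 58.9 over 10 genes with a value. By mean fold percentile over both lists, the basis for the top gene of each group here, the first was Cdk14, a kinase of membrane-bound cyclin Y, with folds of 12.3 and 28.7. It led neither list: Cdk19 was higher in replicate 1, at 12.6, and Cdk13 in replicate 2, at 29.0. Cdk7, the kinase that activates other CDKs, Cdk10 and Cdk15 had no peak. The cyclin partners had shared peaks at 6 of 9 genes and a median percentile of 84.5 over 6. They ranged up to Ccne1, the partner of Cdk2, with folds of 65.0 and 131.6, ranks 6 and 2. The D-type cyclins, which partner Cdk4 and Cdk6, differed among themselves. Ccnd3 had a shared peak with folds of 19.2 and 13.4, Ccnd2 had a peak in replicate 1 alone, at 8.30, and Ccnd1 had no peak.

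CDK inhibitors had shared peaks at 4 of 7 genes, with a median percentile of 82.7 over 4. Cdkn2c, an inhibitor of Cdk4 and Cdk6, was first by mean percentile, with folds of 19.1 and 52.5, although Cdkn1b had the higher fold in replicate 1, at 43.4. Assembly and activation factors had shared peaks at 4 of 5, with a median of 36.7, the first by mean percentile being Cks2, a CDK-binding adaptor, at 24.1 and 28.0 beyond the far end of the gene. Of the regulators of Cdc25 and Wee1, which include the checkpoint kinases and Plk1, 6 of 8 had one, with a median of 53.4. Bora, an activator of Aurka, was first by mean percentile, at 9.95 and 37.1, although Mapkapk2 had the higher fold in replicate 1, at 11.9. All 6 genes of the Greatwall and PP2A-B55 branch, which controls how mitotic phosphorylation is removed, had one, with a median of 64.2 and with Ppp2r2d first by mean percentile, at 32.4 and 23.9.

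By distance between their percentiles in both lists and the medians of the 7 core genes, the 5 nearest of the 36 pathway genes were Cdkn2d at 11.8 percentile points, Cdk14 at 12.5, Cks2 at 12.8, Ensa at 13.0 and Cdkn2c at 14.0. Cdkn2d, another inhibitor of Cdk4 and Cdk6, had folds of 15.1 and 48.1, and Ensa, a Greatwall substrate that inhibits PP2A-B55, of 16.7 and 18.1. The likeness rests on 2 libraries, and for Cks2 on the peak beyond the far end of the gene.

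**Figure D4:**
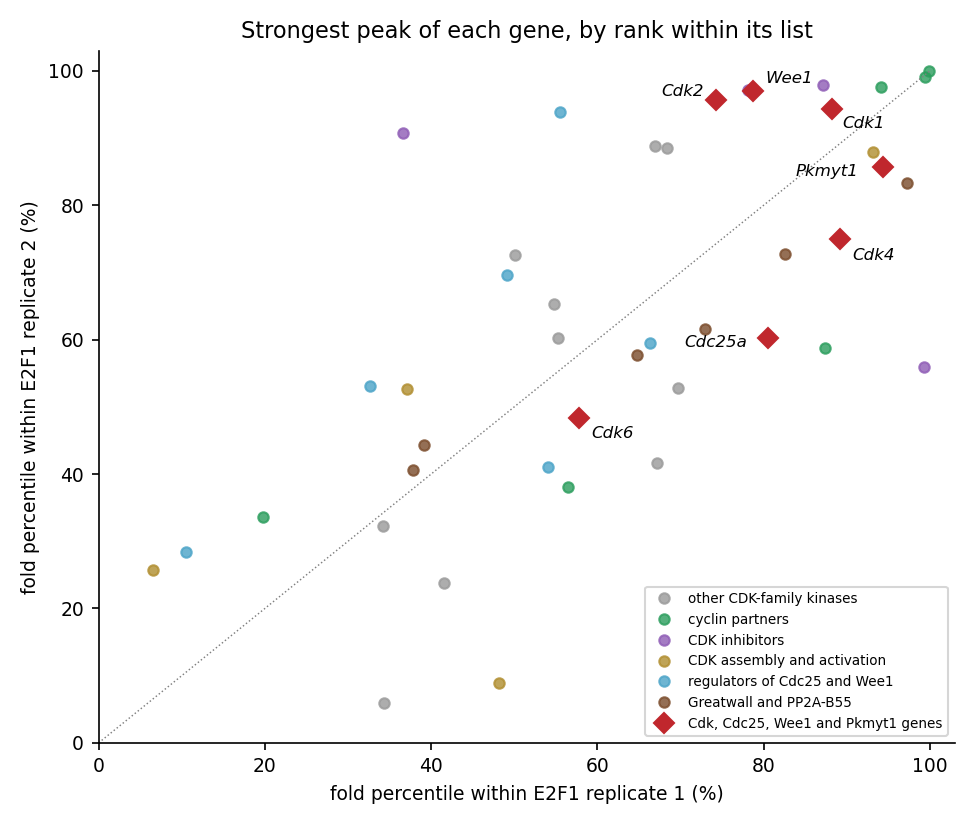
Fold percentile of the strongest peak of each gene within E2F1 replicate 1 (x axis, %) and replicate 2 (y axis, %), for the 7 core genes with a shared peak (red diamonds) and the 36 pathway genes with peaks in both lists (circles, coloured by sub-list); the dotted line marks equal percentiles. Cdk1, Cdk2, Wee1 and Pkmyt1 lie in the upper right, and Cdk6 near the middle at 57.8 and 48.4.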

How the data were processed

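The series holds 4 deposited E2F1 ChIP-seq peak lists, 1 per library, and groups and replicate numbers came from the labels' library names. Per the submitters' processing notes, FastQC, Trimmomatic, Bowtie2, MACS2 and ChIPseeker were used on mm10 (GRCm38). Versions, settings, the antibody and the control of each list are not given in the sources used here. Each deposited list has 10 columns: the authors' score (10 times the −log10 q-value, rounded down, for nearly all peaks), the deposited fold as a ratio of pileup to local background, and the authors' −log10 p-value and −log10 q-value. The lowest −log10 p in each list is just above 10, so weaker sites are missing.

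Gene spans came from a RefSeq table of GRCm38.p6 (all symbols matched), and start sites and sequences from a RefSeq promoter table. An overlap of 1 bp or more made peaks shared, and the strongest peak of a gene was that with the highest fold. Fold was solved as (pileup + 1) / (background + 1) with p as a Poisson upper tail. The solution was kept where its −log10 p missed the deposited one by under 5% of what 1 more read changes, which held for 99.9% of peaks in each E2F1 list and for 91.4% and 99.7% in the EV lists. Read totals were not used here. The lowest solved background, a stand-in for depth, was 1.85 and 1.86 reads in the E2F1 lists and 2.20 and 1.18 in the EV lists. Scripts (Python 3.11.15, pandas 2.3.3, scipy 1.17.1) were tested on simulated peaks. Alternatives varied the window, overlap, score threshold, ranking measure, motif and libraries. With 1 value per library the pairing of replicate numbers could not be checked. All 9 genes are named, with the top gene of each pathway sub-list, pathway genes with an EV peak and the 5 most like the core genes; others named were chosen after their values were seen. Genes and lists were chosen with earlier results of these data known.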

Additional observations from a re-analysis of the deposited data

How the results depend on the processing

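Over 12 results, 45 of 50 alternatives stayed within the main value's spread or 1.5 times its count, 5 moved and 0 reversed. Some could not change the core gene counts. Every peak assigned to the core genes overlapped the gene span, and no core gene had an EV peak. The number of core genes with a shared peak, 7, was 5 with summits within 200 bp of each other and 6 with a reciprocal overlap of 50% or with peaks at or above the median score. With single lists it was 7 to 8. The E2F1 minus EV difference of 7.5 genes ran from 7 to 8 without 1 library. It was 6.5 with peaks at or above the median score of all E2F1 peaks. The replicate block left it at 7.5 (exact sign-flip test, p = 0.5, which 2 pairs cannot go below). The median fold percentile, 85.0, was 80.3 without E2F1 replicate 1, which then counted Cdc25b, and 80.5 without E2F1 replicate 2. The pathway count of 35 fell to 20 with peaks at or above the median score, where weaker peaks were removed by construction. Of the 21 single-gene alternatives, 2 moved: by solved pileup, Cdk1 went from the 91.3 to the 83.6 percentile and Cdc25a from 70.4 to 52.5. A site without a listed peak may hold signal under the filter.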

Other observations

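Among the 6 genes with a sequence, Cdk4 and Cdk6 had no match to the E2F, CHR or CCAAT words. Of these, Cdk4 had the stronger E2F1 peak, above the median fold of its list in both replicates. Only the 250 bases before and 50 after the start site were searched. The Cdk4 peak reached 1230 and 908 bp downstream in E2F1 replicates 1 and 2, and that part was not searched. The Cdk4 sequence held 4 copies of CACGTG, the palindromic E-box that Myc and related factors bind, a word searched only after the sequences had been seen. They began 172, 118, 98 and 11 bases upstream of the start site. Of 21263 promoter sequences of protein-coding genes, 1666 (7.84%) held at least 1 copy and 5 (0.0235%) held 4 or more, Cdk4 among them. Of the other 5 core genes with a sequence, Cdk6 held 1 copy and Cdk1, Cdk2, Cdc25a and Cdc25b held 0. In E2F1 replicate 2 the Cdk4 summit lay 53.5 bp from the middle of the copy nearest the start site, and in replicate 1 it lay 205.5 bp from it, downstream of all 4 copies in both lists. Binding of Myc was not measured here.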
